A study of Mus musculus with 12 samples.

Results

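The genes described here are the mouse cytochrome P450 genes of families 1 to 4, the families that hold most drug- and toxin-oxidising P450 enzymes. They were taken by symbol: Cyp, a family digit from 1 to 4, a subfamily letter and a number, with nothing after it. Such a symbol was carried by 72 of the 22564 genes of the deposited input tables. The 6 deposited m6A peak lists held 337 peaks with these gene names. Of these, 175 were among the 17175 peaks of the list labelled control and 66 were among the 17277 peaks of the list labelled case. The rule leaves out symbols with a closing letter, so Cyp4a12a, Cyp4a12b, Cyp3a41a and Cyp3a41b are not members.

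The RNA came from livers of 8-week-old male C57BL/6 mice, either wild type (WT) or with a liver-specific knockout of Mettl3 (Mettl3 cKO). METTL3 is the enzyme that places N6-methyladenosine (m6A) on mRNA. The labels do not give the promoter that drives the liver-specific deletion or say whether a library came from 1 animal or a pool. The 12 samples formed 4 groups of 3 libraries: WT input, WT m6A immunoprecipitate (IP), cKO input and cKO IP. Values could be tied to a genotype for 1 input library and 1 peak list of each. These are named control and case. Control was read as WT and case as cKO, a reading the labels do not state, so both are called below by the names they carry. With 1 library per genotype there is no replicate check. No p-value or SD is given, and "higher" and "lower" describe these 2 libraries and not the genotypes.

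P450 enzymes are heme proteins of the endoplasmic reticulum that insert an oxygen atom into their substrate with electrons passed on from NADPH by P450 oxidoreductase. In liver, families 1 to 3 oxidise drugs, toxins and steroids, while family 4 mainly hydroxylates fatty acids and eicosanoids. Their transcription is set by ligand-activated receptors such as AhR, CAR, PXR and PPARa, by hepatocyte factors such as HNF4A, and in rodents by the sex-specific rhythm of growth hormone. m6A is read by proteins that change the stability, splicing or translation of the marked mRNA.

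The deposited tables gave back a depth of 1737369 fragments (control input, 23.9% of them mitochondrial) and 3564797 fragments (case input, 27.6% mitochondrial). Mettl3 itself stood at 3.44 FPKM (12 control fragments) and 2.91 FPKM (17 case fragments). The ratio of scaled fragments had a 95% interval of 0.545 to 2.78, so a difference of Mettl3 RNA was not detectable at this depth, and the label of the case library is not checked by it. FPKM (fragments divided by transcript length and by a library factor) is a level per length, so genes can be set beside each other on it. As deposited, FPKM ran higher in the case input for most genes: the median difference of log2(FPKM + 1), case minus control, over the 9584 genes with a mean of at least 1 FPKM was 0.41. Counts of P450 genes and the leading differences are therefore also given with the non-mitochondrial totals made equal.

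The inputs were liver by their hepatocyte markers, with albumin (Alb) at 11189 (control) and 21159 FPKM (case), but the 2 libraries differed widely in markers of other liver cells. The summed level of the 7 hepatocyte markers was 13420 (control) and 28507 FPKM (case), and 6 of the 7 were higher by 2-fold or more. All 11 Kupffer cell and macrophage markers in the table were at least 2-fold lower in the case input, with sums of 653 and 16.5 FPKM. The 10 sinusoidal endothelial markers were also all lower, with sums of 291 and 29.4 FPKM. Of 10 stellate cell markers 8 were compared and all 8 were lower, with sums of 140 and 14.6 FPKM. Of the 10 B, T and NK cell markers 3 were compared and all 3 were lower. The sums were 26.5 and 2.69 FPKM. The 1 cholangiocyte marker compared of 6, Spp1, was lower, at 6.92 and 1.45 FPKM, and the sums over all 6 were 8.999 and 1.94 FPKM. There were 4 markers of each of these last lists at 0 in the case input. The part of these marker differences in the P450 differences below was not tested. In bulk RNA, fewer cells of a type and less RNA per cell cannot be told apart.

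P450 RNA took a larger share of the case input than of the control input. The 72 genes held 15717 of 1322877 non-mitochondrial fragments in the control input, 1.19% (95% exact binomial interval 1.17 to 1.21), and 50561 of 2581661 in the case input, 1.96% (1.94 to 1.98). Their summed level was 1542 (control) and 4326 FPKM (case), a ratio of 2.81, against 1.80 for all non-mitochondrial genes. Intervals here cover counting error only. As many members were above 0 in each input, 55 of 72, so the larger share came with higher levels and not with more genes listed. The number of members at 50 FPKM or more was 8 (control) and 21 (case).

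Of the 48 members with a mean of at least 1 FPKM, 38 were higher in the case input by 2-fold or more on the log2(FPKM + 1) scale, 1 was lower and 9 lay within 2-fold. Over all genes compared, 23.6% were at least 2-fold higher and 13.2% at least 2-fold lower. The members' median difference was 1.55, with a middle range of 1.15 to 2.08. The FPKM ratio, case over control, was above 1 for 45 members, with a median of 3.33 and a range of 0.238 to 12.1. With equal non-mitochondrial totals 19 members were higher and 1 lower, with a median of 0.96 against -0.15 for all genes, of which 8.01% were higher and 20.9% lower. After quantile normalization 22 members were higher and 1 lower, with a median of 0.93 against 0.16, and with 14.2% of all genes higher and 15.8% lower. The median difference of the members minus that of all genes was 1.14 as deposited, 1.11 with equal totals and 0.77 after quantile normalization.

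**Figure D1:**
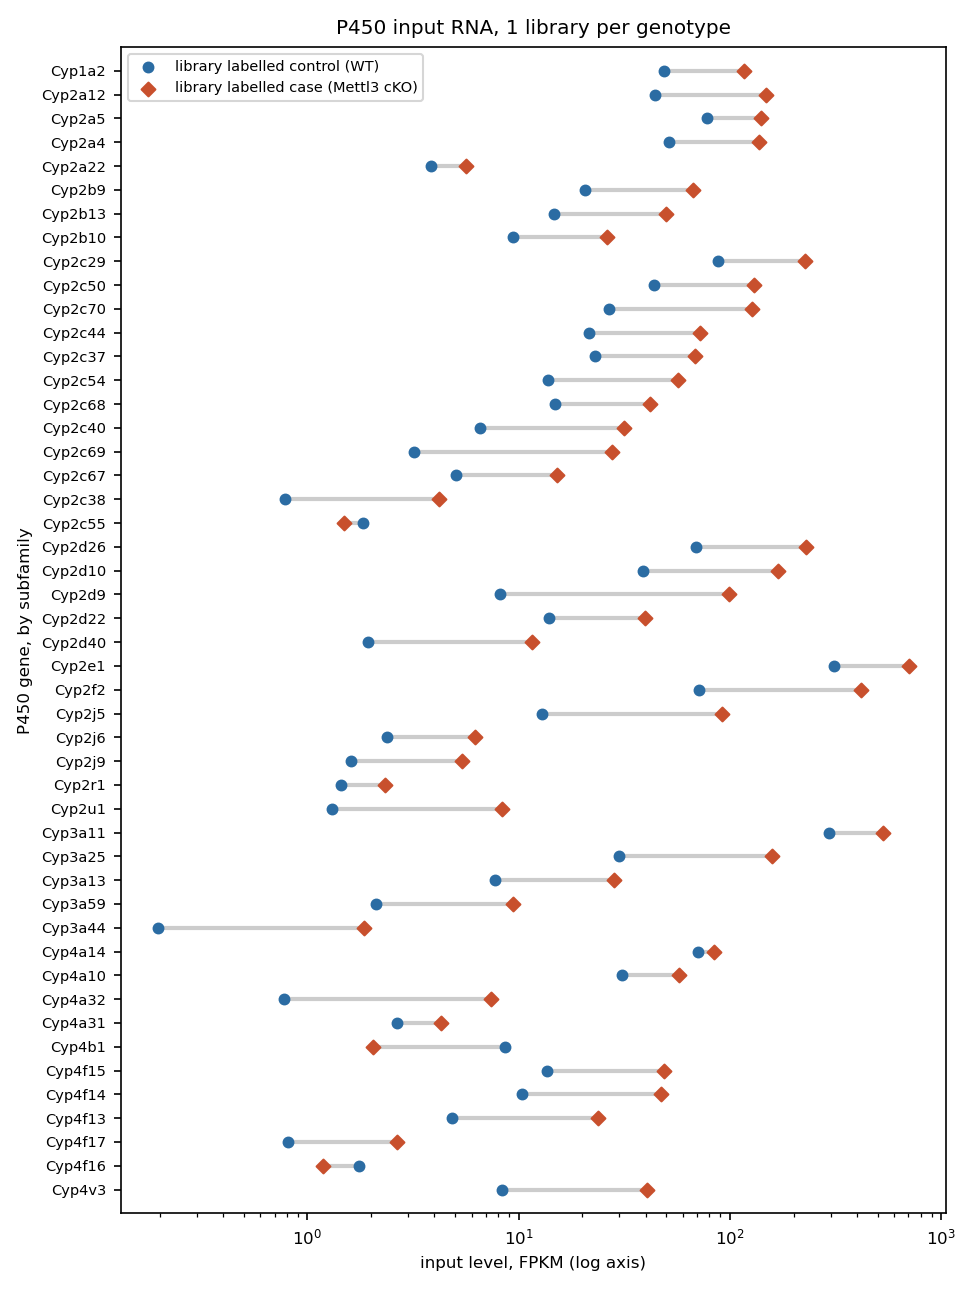
Input level in FPKM (log axis) of the 48 P450 genes compared, by subfamily. Circles are the library labelled control and diamonds the library labelled case, 1 library each and without error bars. The diamond lies to the right of the circle for 45 genes, and Cyp4b1, Cyp2c55 and Cyp4f16 are the exceptions.

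The order of the members was largely the same in both inputs, with a Spearman correlation of FPKM of 0.92 over the 48 genes, which share library and length model. Cyp2e1 (chromosome 7, 140763739 to 140774975, plus strand, mm10), which oxidises ethanol, acetone and paracetamol around the central vein, was listed at 310.8 (control) and 701 FPKM (case), a difference of 1.17. Cyp3a11 (chromosome 5, 145854426 to 145879964, minus strand), the main PXR-inducible enzyme of mouse liver, followed at 293 and 530 FPKM, a difference of 0.85. In the control input the counting intervals of the levels of Cyp2e1 (299.7 to 322 FPKM) and Cyp3a11 (284 to 303 FPKM) overlapped. In the case input those of Cyp2e1 (686 to 717 FPKM), Cyp3a11 (519 to 542 FPKM) and Cyp2f2 (407 to 432 FPKM) lay apart. These leading genes were thus ordered more clearly in the case input. It was the deeper library, and the levels of Cyp2e1 and Cyp3a11 also lay further apart in it. Cyp2e1 and Cyp3a11 together held 41.5% of all member fragments in control and 30.4% in case, so the P450 RNA was spread more evenly over its genes in the case input. On other scales the differences of both were small: with equal totals Cyp2e1 stood at 0.44 and Cyp3a11 at 0.12, and after quantile normalization both were below 0 (-0.03 and -0.38).

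The largest difference belonged to Cyp2d9 (chromosome 15, 82452377 to 82456827, plus strand), the male-biased steroid 16-alpha-hydroxylase of mouse liver. Its 69 control fragments gave 8.19 FPKM and its 977 case fragments 98.9 FPKM. The FPKM ratio was 12.1 and the difference 3.44, or 2.75 with equal totals. The scaled fragment ratio was also 12.1, with an interval of 9.47 to 15.7. Cyp2c69, a female-biased gene of the chromosome 19 cluster, followed at 3.19 and 27.6 FPKM, a difference of 2.77. Cyp2j5, an arachidonic acid epoxygenase, stood at 12.9 and 91.8 FPKM, a difference of 2.74. Cyp2f2, the naphthalene-activating enzyme of periportal hepatocytes and of lung, stood at 71.7 and 419 FPKM, a difference of 2.53. Cyp3a25 stood at 29.8 and 157 FPKM, a difference of 2.37. All 5 genes were also at least 2-fold higher with equal totals (1.64 to 2.75) and after quantile normalization (1.37 to 2.77).

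Cyp4b1 (chromosome 4, 115624725 to 115647709, minus strand), a fatty acid hydroxylase known mainly from lung, was the 1 member compared that was at least 2-fold lower in the case input. Its 74 control fragments gave 8.62 FPKM and its 20 case fragments 2.05 FPKM, an FPKM ratio of 0.238 and a difference of -1.66. Its difference was also below -1 on both other scales, at -2.24 and -1.97. Cyp4f16 (1.76 and 1.18 FPKM) and Cyp2c55 (1.84 and 1.49 FPKM) were lower by less than 2-fold, and the counting intervals of their fragment ratios, 0.446 to 2.16 and 0.400 to 1.63, included 1. Cyp4f18 was listed at 1.03 FPKM (9 fragments) in control and at 0 in case. With a floor of 3 fragments in place of the 0 it was 3.51-fold lower, and the counting interval of its fragment ratio had an upper limit of 0.433. Below the level limit, Cyp2d34 was at 0 in the control input with 7 fragments in the case input. On the same floor it was 1.99-fold higher, and the counting interval of its fragment ratio had a lower limit of 1.23.

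By subfamily, Cyp2b, Cyp2d and Cyp2j had every member compared higher in the case input. All 5 Cyp2d members compared were higher in the case input, with a median difference of 2.10. Cyp2d26 stood at 68.8 (control) and 228 FPKM (case), Cyp2d10 at 38.7 and 170, and Cyp2d22 at 13.9 and 39.7. All 3 Cyp2b members compared were higher, with a median of 1.66: Cyp2b9 stood at 20.6 and 67.0 FPKM, Cyp2b13 at 14.7 and 49.9, and the CAR target Cyp2b10 at 9.39 and 26.2. With equal totals 3 of the 5 Cyp2d members and none of the 3 Cyp2b members were past 2-fold. Of the 3 Cyp2j members 1 was, Cyp2j5.

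Cyp2c is the largest subfamily, and 11 of its 12 members compared were higher, with a median of 1.55, Cyp2c55 being the exception. Cyp2c29, an arachidonic acid epoxygenase, stood at 87.5 (control) and 228 FPKM (case). Cyp2c70, which makes the muricholic bile acids of mice, stood at 26.8 and 127 FPKM. Cyp2c50 stood at 43.9 and 131, Cyp2c44 at 21.5 and 71.9, Cyp2c37 at 22.9 and 68.7 and Cyp2c54 at 13.8 and 56.6 FPKM. With equal totals 5 of the 12 were past 2-fold.

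Cyp3a and Cyp4f showed a similar share of higher members, 4 of 5 in each, with medians of 1.73 and 1.77. With equal totals 3 of 5 in each were past 2-fold, with a median of 1.06 in each. Among the Cyp4f genes, which hydroxylate leukotrienes and long-chain fatty acids, Cyp4f15 stood at 13.6 (control) and 48.6 FPKM (case), and Cyp4f14 at 10.3 and 47.3. In Cyp2a 2 of 4 were higher, with a median of 1.11. The coumarin 7-hydroxylase Cyp2a5 stood at 78.0 and 140 FPKM (0.83), the testosterone 15-alpha-hydroxylase Cyp2a4 at 51.5 and 137 (1.39), and Cyp2a12 at 44.3 and 148 (1.72). With equal totals none of the 4 was past 2-fold. These subfamilies hold close paralogs, and whether the authors' counting split fragments correctly between them was not tested, so values of single Cyp2a, Cyp2b, Cyp2c and Cyp2d genes are uncertain in this respect.

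Cyp4a, the fatty acid omega-hydroxylases that respond to PPARa, had the smallest median of the subfamilies with several members compared, 0.71, and 1 of 4 was higher. Cyp4a14 stood at 70.3 (control) and 84.5 FPKM (case), a difference of 0.26 that was below 0 with equal totals (-0.47) and after quantile normalization (-0.80). Cyp4a10 stood at 30.9 and 57.5 FPKM, a difference of 0.87. Cyp4a32 was the higher member, at 0.774 FPKM from 6 fragments and 7.40 FPKM from 62. Cyp4a31 gave no clear direction: its FPKM was 2.65 and 4.28, yet its fragments numbered 33 and 22, a scaled fragment ratio of 0.569 against an FPKM ratio of 1.62, the only member compared whose ratios differed in this way by 1.5-fold or more. Ppara itself stood at 7.41 and 40.9 FPKM.

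**Figure D2:**
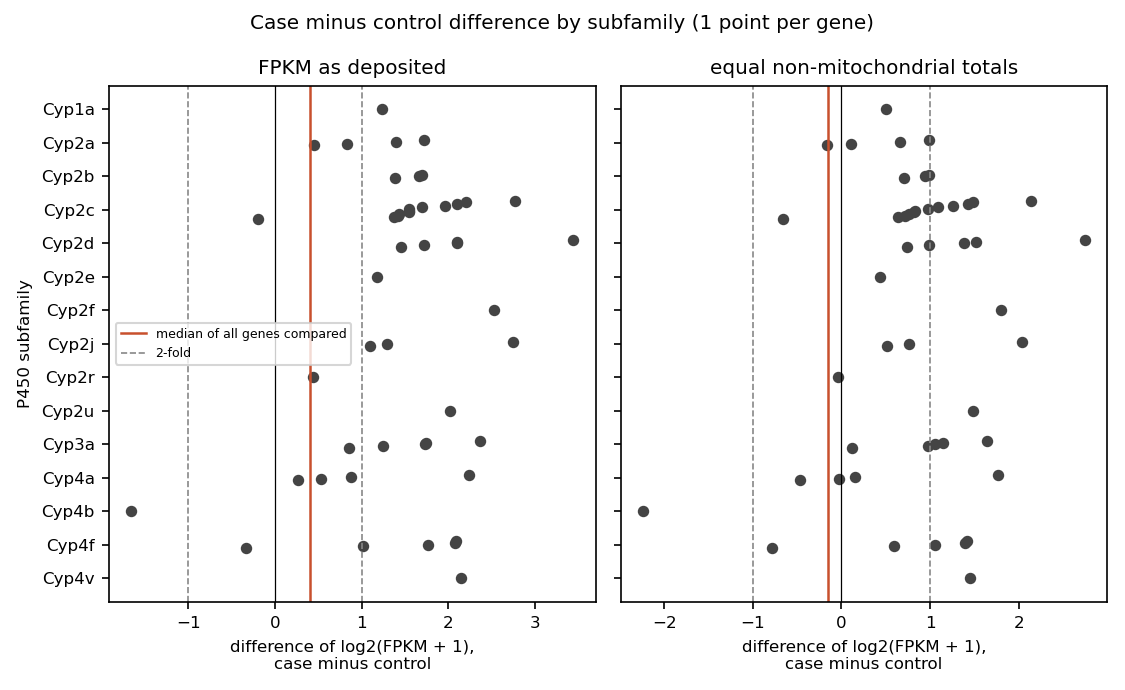
Difference of log2(FPKM + 1), case minus control, of each P450 gene compared, by subfamily, with FPKM as deposited on the left and with equal non-mitochondrial totals on the right. Dashed lines mark 2-fold and the coloured line the median of all 9584 genes, 0.41 on the left and -0.15 on the right. With equal totals the number of members past 2-fold higher is 19 in place of 38.

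Lists of members by known regulation gave the following counts. Of the AhR-responsive genes Cyp1a2, which oxidises caffeine and aromatic amines, stood at 48.8 (control) and 116 FPKM (case) (1.23), while Cyp1a1 and Cyp1b1 were below the level limit with at most 0.185 FPKM. Of 9 genes that respond to CAR or PXR 7 were higher, with a median of 1.54, or 3 with equal totals. All 7 female-biased genes compared, of 9, were higher, with a median of 1.66, and so were all 4 male-biased ones, with a median of 2.38. With equal totals 2 of the 7 and 3 of the 4 remained past 2-fold. The male-biased list includes Cyp2u1 (1.31 and 8.38 FPKM) and the lauric acid hydroxylases Cyp4a12a (1.96 and 18.8 FPKM) and Cyp4a12b (1.67 and 4.41 FPKM), the last 2 not members by symbol. The female-biased list holds members only. Of these, Cyp2c39 (0 and 0.274 FPKM) and Cyp3a16 (0.451 and 0.0963 FPKM) were below the level limit and went opposite ways. Cyp3a41a, not a member by symbol and not on this list, lay within 2-fold (1.97 and 2.41 FPKM, 0.196, or -0.312 with equal totals). Cyp3a41b was below the level limit. The counts of both lists thus depend on which genes were entered. In both inputs male-biased Cyp2d9 and female-biased Cyp2b9 were present together. The Y-linked genes, a check of the labelled sex, were above 0 in both inputs and had a higher FPKM in the case input, from few control fragments. Ddx3y stood at 0.558 and 3.64 FPKM (14 control fragments) and Uty at 0.428 and 3.27 FPKM (6 control fragments). Their differences with equal totals were 1.17 and 1.202. Eif2s3y stood at 1.09 and 4.47 FPKM, with 0.90 on that scale. Kdm5d stood at 0.303 and 0.607 FPKM, with 0.08, and the counting interval of its fragment ratio was 0.875 to 4.94. The part of these Y-linked differences in the difference of the male-biased genes was not tested.

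By position in the lobule, 6 of 8 pericentral genes were higher, with a median of 1.30. With equal totals 1 of the 8 was past 2-fold, with a median of 0.57, and after quantile normalization 1, with a median of 0.19. The 1 periportal gene, Cyp2f2, stood at 2.53, or 1.80 with equal totals. Of 11 members that act mainly on endogenous lipids or vitamin D 8 were higher, with a median of 2.02, or 7 with equal totals. The exceptions were Cyp4a10, Cyp4a14 and the vitamin D 25-hydroxylase Cyp2r1 (1.45 and 2.33 FPKM from 12 and 21 fragments). Of 8 members known mainly from other organs 2 were compared, Cyp4b1, which was lower, and Cyp2j9 (1.61 and 5.39 FPKM), which was higher as deposited but not past 2-fold with equal totals.

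Genes of electron supply and heme metabolism, which serve P450 enzymes, were in part higher in the case input as deposited. Few were past 2-fold higher with equal totals or after quantile normalization. Of the 6 electron supply genes compared 5 were higher, with a median of 1.33. P450 oxidoreductase (Por) stood at 82.4 (control) and 236 FPKM (case), and Pgrmc1 at 58.3 and 219. Of 12 genes of heme synthesis and breakdown 6 were higher and 1 lower, with a median of 0.98. Alas1, the rate-limiting enzyme of heme synthesis in liver, stood at 88.0 and 439 FPKM. The heme-degrading Hmox1, which is also abundant in macrophages, stood at 32.1 and 2.34 FPKM. With equal totals 1 of the 6 electron supply genes and 1 of the 12 heme genes were past 2-fold higher, beside 8.01% of all genes. After quantile normalization the counts were 0 and 3, beside 14.2%. With differences centred on the median of all genes they were 3 and 2, beside 11.6%.

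Of 14 transcriptional regulators compared 9 were higher, with a median of 1.27, or 5 with equal totals. With equal totals 1 was at least 2-fold lower, Tcf7l2 (9.03 and 4.32 FPKM), at -1.55, against -0.92 as deposited. CAR (Nr1i3) stood at 20.1 (control) and 82.2 FPKM (case), PXR (Nr1i2) at 4.98 and 25.9, and Hnf4a at 19.1 and 77.7, while Ahr stood at 4.53 and 6.57. Of the 9 other phase I oxidation genes 8 were higher, with a median of 1.54, or 4 with equal totals, Fmo5 standing at 31.8 and 148 FPKM. Of the 10 P450 genes of families 5 and above that were compared 7 were higher and 1 lower, with a median of 1.66, beside 1.55 for families 1 to 4. With equal totals 5 were higher. The sterol 27-hydroxylase Cyp27a1 stood at 17.4 and 100.2 FPKM. The lower one, the retinoic acid hydroxylase Cyp26b1, stood at 9.32 and 0.504 FPKM. The median of the hepatocyte markers was 1.86, above that of the P450 genes. When FPKM was scaled to the hepatocyte marker sum, a setting chosen after seeing the data, 14 members were higher and 2 lower and their median was 0.62, against -0.43 for all genes. That sum was mostly Alb (11189 of 13420 FPKM in control), which had the smallest difference of these markers, 0.92. The setting therefore largely scaled to Alb and not to the median marker.

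**Figure D3:**
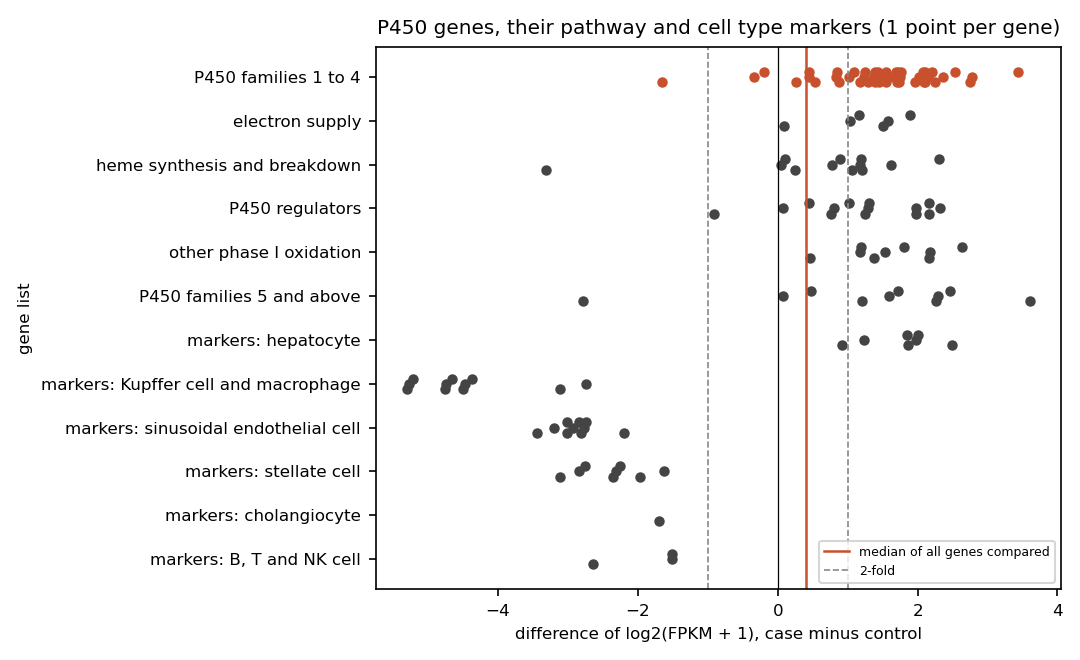
Difference of log2(FPKM + 1), case minus control, of each gene compared in the P450 families, in the lists of their pathway and in the cell type marker lists, 1 point per gene. Most P450 and pathway genes lie to the right of 0 with the hepatocyte markers, while all compared markers of the other 5 cell classes lie below -1.

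The promoters of the members were searched for motifs, since most of these genes differed in the same direction. RefSeq promoters (GRCm38.p6, 250 bases before to 50 after the start) matched 60 of the 72 members by symbol. An HNF4-type core, CAAAGTNCA on either strand, was in 12 of the 60 (20%) and in 1.64% of 27025 genes. The Cyp2c cluster of chromosome 19 held 8 of the 12. The last 120 bases before the start are shown for 3 Cyp2c genes of this cluster, Cyp2c68 (chr19:39741102-39741221, minus strand), Cyp2c69 (chr19:39886770-39886889, minus strand) and Cyp2c70 (chr19:40187287-40187406, minus strand), to show how the core sits in the same stretch. Capitals mark the core.
Cyp2c68: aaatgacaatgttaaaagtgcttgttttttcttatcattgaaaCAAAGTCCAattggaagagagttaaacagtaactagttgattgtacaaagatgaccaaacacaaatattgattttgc
Cyp2c69: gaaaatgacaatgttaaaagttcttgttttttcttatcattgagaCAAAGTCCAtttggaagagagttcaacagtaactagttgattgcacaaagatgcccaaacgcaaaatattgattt
Cyp2c70: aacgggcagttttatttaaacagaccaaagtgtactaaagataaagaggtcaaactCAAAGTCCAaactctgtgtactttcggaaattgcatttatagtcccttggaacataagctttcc
The core began 77, 75 and 64 bases before the start in Cyp2c68, Cyp2c69 and Cyp2c70. The promoters of Cyp2c68 and Cyp2c69 shared 277 of 300 bases (92.3%), while their differences in level were 1.43 and 2.77. Members with the core had a median difference of 1.55 and members without it 1.68.

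A TATA box (TATAAA on either strand) was in 45% of the 60 members and in 15.7% of all genes. The HNF1 half-site GTTAAT was in 15% and 8.24%, the C/EBP core TTNNGNAA in 48.3% and 44.1%, the nuclear receptor half-site AGGTCA in 30% and 18.1%, and the AhR core GCGTG in 21.7% and 35.2%. Among the members compared, the median difference with and without the motif was 1.54 and 1.66 for the TATA box, 1.904 and 1.55 for the HNF1 half-site and 1.54 and 1.72 for the C/EBP core. It was 1.70 and 1.54 for the nuclear receptor half-site and 1.39 and 1.70 for the AhR core. Motifs were counted apart even where they overlap, and a match describes letters in this window and nothing about binding. Cyp2d9 (chr15:82452257-82452376, plus strand) and Cyp2d11 (chr15:82394023-82394142, minus strand) shared 267 of 300 bases (89%) yet stood far apart in level: Cyp2d9 was at 98.9 FPKM in the case input and Cyp2d11 at 0, with 0.247 FPKM in the control input. Their last 120 bases before the start are shown for this contrast, with TATAAA and its reverse complement TTTATA in capitals.
Cyp2d9: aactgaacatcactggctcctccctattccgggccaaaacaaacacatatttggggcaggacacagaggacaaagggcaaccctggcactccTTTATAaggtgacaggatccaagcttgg
Cyp2d11: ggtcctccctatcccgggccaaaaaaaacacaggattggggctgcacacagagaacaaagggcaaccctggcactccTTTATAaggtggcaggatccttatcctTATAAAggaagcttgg
Cyp2d9 had 1 match, 28 bases before the start, and Cyp2d11 had 2, at 43 and 16 bases. The m6A peaks of this pair went the other way from its levels in the case library. Cyp2d9 had 3 control and 0 case peaks, and Cyp2d11 had 0 control and 2 case peaks.

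The closest pair was Cyp2b9 (chr7:26173159-26173408, plus strand) and Cyp2b13 (chr7:26061245-26061494, plus strand), both female-biased, with 298 of 300 promoter bases identical (99.3%) and case minus control differences of 1.66 and 1.70. The 250 bases before the start are shown because the pair is almost the same in sequence and in its case minus control difference. Its levels were 20.6 and 67.0 FPKM for Cyp2b9 and 14.7 and 49.9 FPKM for Cyp2b13. The 2 bases that differ are in capitals.
Cyp2b9: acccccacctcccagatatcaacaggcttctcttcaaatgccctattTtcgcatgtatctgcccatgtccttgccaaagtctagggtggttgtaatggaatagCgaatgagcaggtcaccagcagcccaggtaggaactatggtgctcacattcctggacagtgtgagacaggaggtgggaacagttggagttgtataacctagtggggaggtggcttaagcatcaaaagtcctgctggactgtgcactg
Cyp2b13: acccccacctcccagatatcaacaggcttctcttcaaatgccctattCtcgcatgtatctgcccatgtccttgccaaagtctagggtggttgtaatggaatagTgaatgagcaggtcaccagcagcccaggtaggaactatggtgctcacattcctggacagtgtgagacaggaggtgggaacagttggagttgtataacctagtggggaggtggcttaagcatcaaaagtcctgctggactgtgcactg

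The case list held fewer m6A peaks on P450 genes than the control list. The 2 lists were of nearly equal length but not equally stringent: the authors' false discovery rate had a median of 1.66% and a highest value of 7.52% in the control list, against 12.28% and 25.92% in the case list. For P450 peaks it ran from 0 to 7.4% in the control list and from 10.5 to 24.16% in the case list. The part of this gap in the peak counts was not tested. P450 peaks made up 1.02% of the control list (95% exact binomial interval 0.874 to 1.18) and 0.382% of the case list (0.296 to 0.486). A peak was listed for 48 of 72 members in the control list and 37 in the case list. Of the 48 members compared for expression, 44 (91.7%) had a control peak and 29 (60.4%) a case peak. Of the 9584 genes compared, 65.6% had a peak in the control list and 65.4% in the case list. Of the members 30 had a peak in both lists, 18 in the control list alone, 7 in the case list alone and 17 in neither. More peaks were listed in control for 38 members, more in case for 10 and as many in both for 7. On the basis of the 48 compared, 17 (35.4%) had a peak in the control list alone and 2 (4.17%) in the case list alone, against 16.4% and 16.2% of all genes compared. More peaks in control were listed for 36 of the 48 (75%) and more in case for 4 (8.33%), against 34.0% and 31.8% of all genes compared.

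Case peaks were missing for many of the most abundant members. The 8 members at 50 FPKM or more in the control input had 29 control peaks and 4 case peaks, and all 8 had a control peak but 3 a case peak. The 21 members at this level in the case input, which include these 8, had 88 control peaks and 16 case peaks. That set was picked by the case level, but the direction was the same in the 8 picked by the control level. Cyp2e1, Cyp3a11 and Cyp2f2 had 5 control peaks each and no case peak. Cyp1a2 had 3 and 0, Cyp2a12 3 and 0, Cyp2d26 3 and 0, Cyp2c29 2 and 0, and Cyp2d10 2 and 0. Cyp2d9, whose input level was 12.1 times as high in the case library, had 3 control peaks and no case peak. These 9 genes, picked among those with no case peak, had peaks where their deposited FPKM was lower and none where it was higher. As deposited, FPKM was higher in the case input for 45 of the 48 members compared. After quantile normalization Cyp2e1 (-0.03) and Cyp3a11 (-0.38) were below 0. In Cyp2d, Cyp2d11, Cyp2d12 and Cyp2d34 had peaks in the case list alone, at 0, 0.208 and 0.723 FPKM in the case input. Whether these peaks were placed on the right gene was not tested.

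Part of this pattern was shared by all genes of high level. Among all genes at 50 FPKM or more, 76.1% had a peak in the control list (210 of 276) and 42.2% in the case list (223 of 528). The members stood at 8 of 8 in the control list and at 10 of 21, or 47.6%, in the case list. At 10 to under 50 FPKM, 17 of 17 members had a control peak, against 73.6% of all genes, and 8 of 13 (61.5%) a case peak, against 64.7%. At these levels the members' share was above that of all genes in the control list and closer to it in the case list.

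**Figure D4:**
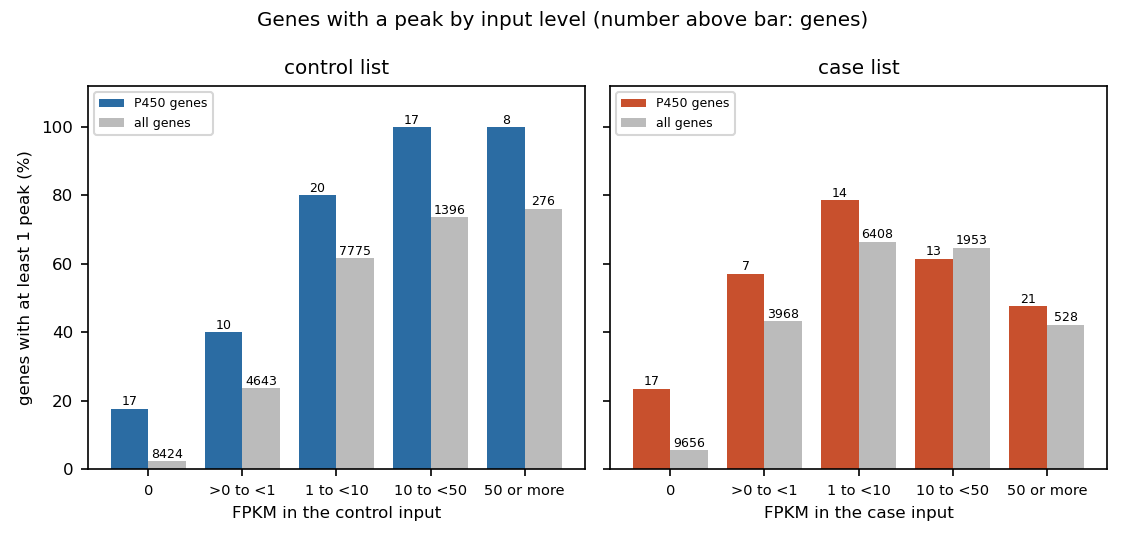
Percentage of genes with at least 1 m6A peak, by FPKM in the input of the same name, for the P450 genes (coloured bars) and all genes (grey bars), with the number of genes above each bar. In the case list the percentage is lower at 50 FPKM or more (47.6% of P450 genes, 42.2% of all genes) than at 1 to under 10 FPKM, which is not so in the control list.

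By subfamily, the peaks of Cyp2c numbered 46 in the control list and 6 in the case list, those of Cyp3a 30 and 17, Cyp2j 16 and 8, Cyp2a 14 and 4, Cyp2b 14 and 6, Cyp4f 13 and 9, Cyp2d 11 and 4 and Cyp4a 9 and 6. Of the members compared, 4 had more case than control peaks. Cyp4b1, at least 2-fold lower in the case input, had no control peak and 2 case peaks. The others, Cyp3a44 (2 and 3), Cyp4f17 (0 and 1) and Cyp4a14 (1 and 2), had a higher FPKM in the case input. The genes with most peaks over both lists were Cyp3a59 (6 and 6), Cyp3a25 (9 and 2), Cyp2j5 (8 and 2) and Cyp4v3 (7 and 3), the last a fatty acid hydroxylase. Cyp2b13, Cyp2b9 and Cyp2c44 had 6 control and 2 case peaks each, Cyp2j6 had 5 and 3, Cyp3a13 6 and 1, and Cyp4f15 5 and 2.

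**Figure D5:**
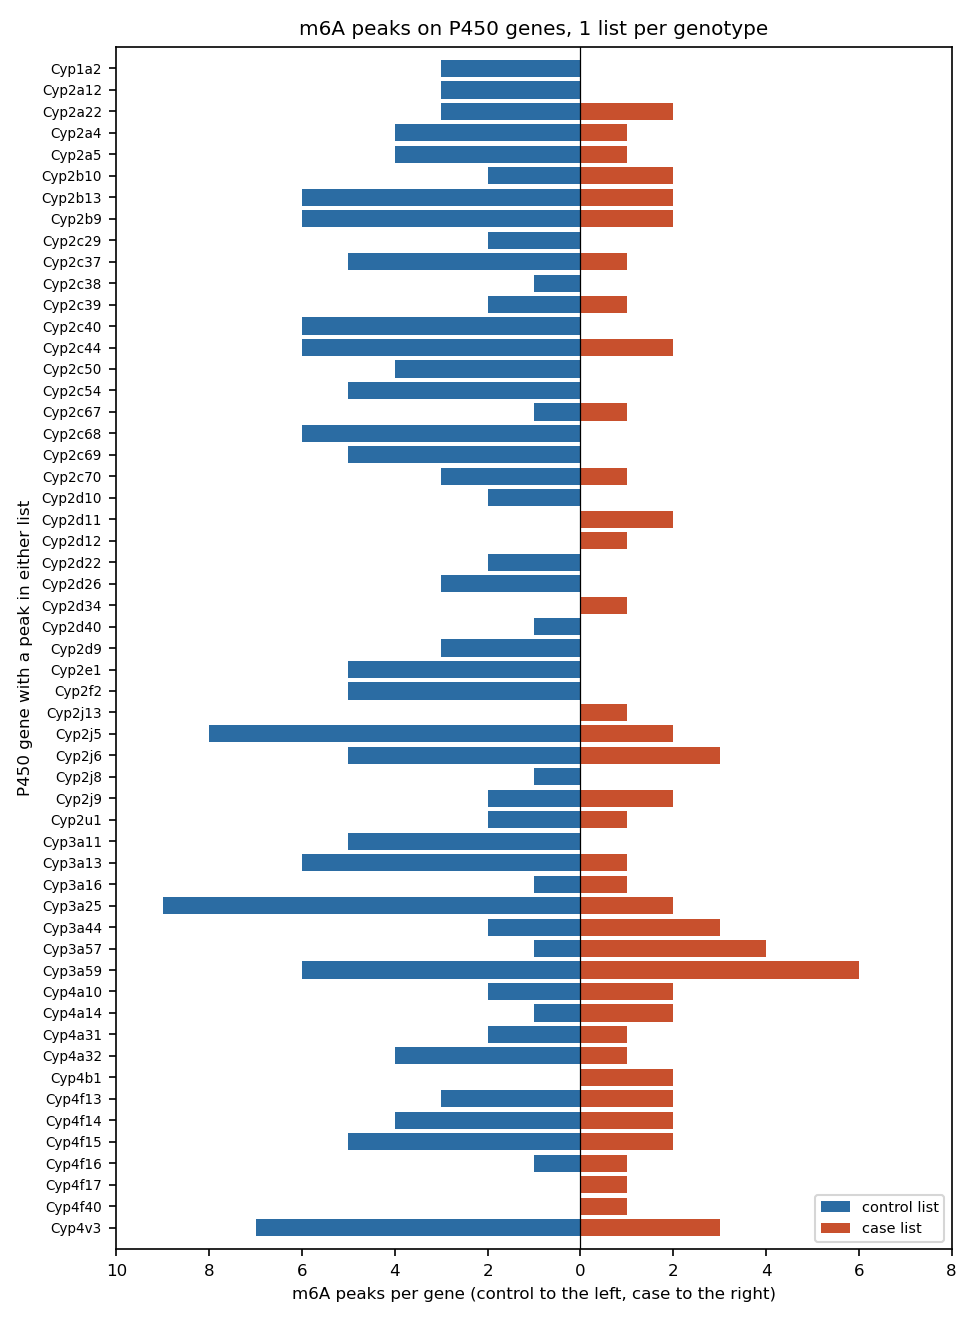
Number of m6A peaks per P450 gene in the control list (bars to the left) and the case list (bars to the right) for the 55 genes with a peak in either list. Bars are longer on the control side for 38 genes. Cyp2e1, Cyp3a11 and Cyp2f2 have 5 peaks on that side and none on the other.

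The fold enrichment and false discovery rate of a peak are the authors' values and describe peaks within 1 list. P450 peaks had a median fold of 20.8 (2.97 to 560) in the control list, whose own median was 28.5, and of 9.68 (3 to 53.4) in the case list, whose own median was 14.95. In both lists the members' median was thus below that of the list. The highest control fold, 560, was that of a Cyp2j5 peak of 654 bases (chromosome 4, 96628993 to 96629646) near the 3' end of the gene, and a case peak overlapped it with a fold of 9.88. Another Cyp2j5 peak (chromosome 4, 96641272 to 96641448, 177 bases) had the same coordinates in both lists, with folds of 115.7 and 10.9. The 5 Cyp2e1 peaks of the control list had folds of 3.58 to 13.5 and the 5 Cyp3a11 peaks 2.97 to 14.4, so the most abundant members carried low folds. Over members with a peak, the Spearman correlation of the highest fold with FPKM was -0.16 in the control list (48 genes) and -0.36 in the case list (37 genes). Fold and FPKM both depend on the input coverage of the gene.

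Of the control P450 peaks 38 of 175, or 21.7% (interval 15.8 to 28.6), were overlapped by at least 1 base by a case peak, and of the case P450 peaks 38 of 66, or 57.6% (44.8 to 69.7), by a control peak. Over the whole lists, 35.5% of control peaks and 35.3% of case peaks were overlapped in this way. The P450 shares thus lay below that value in the control list and above it in the case list, which holds fewer P450 peaks. Identical coordinates were found for 17. Peaks lay in the last 10% of the gene's length, at its 3' end, for 22.5% of control and 15.2% of case P450 peaks, against 26.9% of the peaks of either list. In the first 10% lay 26 of 173 control P450 peaks that could be placed (8.14% over the whole list) and 4 of 66 case P450 peaks (7.205% over the whole list). Position was taken along the whole locus, introns included.

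Many P450 peaks of different genes had the same length. In the control list, 16 genes of Cyp2 subfamilies had a peak of exactly 177 bases, among them Cyp2e1, Cyp2f2, Cyp2c29 and Cyp2j5, 12 genes had one of 163, 11 one of 150 and 11 one of 188. In the case list, 5 Cyp4f genes had a peak of 67 bases. No exon annotation was used here to place these peaks.

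Peaks were also listed for members with no input RNA. Of the 17 members at 0 in the case input 4 had case peaks, 8 in all, against 5.57% of all genes at 0. Cyp3a57 was at 0 FPKM in both inputs and had 1 control and 4 case peaks, among them the P450 peak of highest fold in the case list (53.4, chromosome 5, 145369026 to 145369139). Its promoter shared 275 of 300 bases (91.7%) with that of Cyp3a59, which had 2.12 and 9.39 FPKM and 6 peaks in each list. The transcripts of Cyp3a57 and Cyp3a59 were not compared. Whether fragments were placed on the right one of these genes cannot be told from the deposited files.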

How the data were processed

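An antibody against m6A was used to precipitate fragmented liver RNA, and precipitate and input were sequenced as 150 bp paired-end reads, per the labels' protocols. HISAT2 2.0.4, cutadapt 1.9.3, Cufflinks and Cuffdiff are named, with build mm10 and no roles, in the submitters' processing notes. The authors deposited FPKM per gene and, beside it, a normalized signal whose low values are whole multiples of 1 step per library. Divided by that step, 92.6% (control) and 91.7% (case) of values were whole within 0.02 fragments, for 72 and 71 of the 72 members. The deposited peak lists give, per the file headers, a fold enrichment (ratio) and a false discovery rate in percent. The sources used here do not give the caller's settings.

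The 13 mitochondrial genes were set aside, since 8 of them were at 0 in control and 0 of them in case. Differences are log2(FPKM + 1), case minus control, which understates low genes, over genes with a mean of at least 1 FPKM. A gene was higher or lower at 2-fold. The planned limma test could not be run with 1 input library per genotype. Intervals are 95% exact (Poisson for fragments, Clopper-Pearson for shares and fragment ratios) and cover counting error only. The 8 expression columns and 4 peak lists whose names match no label were used by gene name alone, to apply the rule.

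Named genes were every member at 50 FPKM or more in either input, the 5 highest and 5 lowest differences, members at 0 in 1 input and at least 1 FPKM in the other, the 10 members with most peaks, and up to 4 genes of each list by mean FPKM. Other members are named as parts of a count or a sequence comparison and were chosen after their values were seen. Members and lists were chosen with earlier results of these data known. Alternatives were another pseudocount, other level limits, 4 scalings, stricter peak limits and a scaling to the hepatocyte marker sum. Python 3.11.15, numpy 2.4.6, pandas 2.3.3, scipy 1.17.1 and matplotlib 3.10.9 were used.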

Additional observations from a re-analysis of the deposited data

How the results depend on the processing

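Among the settings tried, the number of members at least 2-fold higher stayed at 38 with a pseudocount of 0.1 and with no limit on level (of 72), was 31 of 36 with a mean of at least 5 FPKM and 29 with median centring. It was 19 with equal totals, 22 after quantile normalization, 24 with fragments scaled to equal totals and 14 with the hepatocyte marker sum, the setting added after seeing the data. The number lower was 2 with no limit on level, 2 with scaled fragments and 2 with the hepatocyte marker sum, and 1 in each other setting. The median difference of 1.55 became 1.71 with a pseudocount of 0.1, 1.13 with no limit, 1.71 at 5 FPKM, 0.96 with equal totals, 0.93 after quantile normalization, 1.14 with median centring, 0.997 with scaled fragments and 0.62 with the hepatocyte marker sum. It was above the median of all genes in each of these, by 0.77 to 1.19. Cyp2e1 turned to -0.027 after quantile normalization, and the sign of Cyp2a5, Cyp3a11 and Cyp4a14 turned there too. Among the 33 named members followed through the settings, the sign also turned for Cyp2r1 and Cyp4a14 with equal totals and with scaled fragments. It turned for Cyp4a14 with median centring, and for Cyp2a5, Cyp2r1, Cyp3a11, Cyp4a10 and Cyp4a14 with the hepatocyte marker sum. Of all 48 members compared, 3 were below 0 as deposited, 7 with equal totals, 7 with scaled fragments and 10 with the hepatocyte marker sum. Scalings differ by construction in the total they equalise; other causes were not tested. Within the 5000 peaks of highest fold of each list, 24 members had a control peak and 3 a case peak; the cause was not tested. With a fold of at least 4, 48 and 34 members had a control and a case peak. A false discovery rate of at most 15% took the case members from 37 to 31 and the case P450 peaks from 66 to 52, and could remove nothing from the control list, where no value reached it. The share of P450 peaks overlapped ran from 17.1% to 21.1% (control) and from 53.0% to 57.7% (case) in these settings. No paired analysis was possible because 1 library per genotype could be tied to its labels. Leaving out each replicate, and leaving out members with near-identical proteins, were not run, for the same reason and because no protein sequences were used here. The depth limits members under about 20 fragments, such as Cyp4a32, Cyp3a44 and Cyp2r1.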

Other observations

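The 4 peak lists named by numbers that match no label held 30, 32, 4 and 30 P450 peaks among 1624, 2424, 1052 and 1127 peaks, in that order. They named 29 of the 72 members, 17 of them in 1 list alone, and Cyp3a16 was the 1 member in all 4, with 6, 4, 2 and 3 peaks. Over all 6 lists 58 members had a peak and 14 had none. A further P450 gene, Cyp2d13, had 5 control and 1 case peaks but was not in the input tables, so it is not among the 72.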
